A study of Homo sapiens with 8 samples.

Results

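The syndecans SDC1, SDC2, SDC3 and SDC4 and the glypicans GPC1, GPC2, GPC3, GPC4, GPC5 and GPC6 are membrane-bound heparan sulfate proteoglycans of human cells. These 10 genes were taken by symbol from a table of 58395 genes, and each symbol matched 1 protein-coding gene. The libraries come from human dopaminergic neurons that a supplier derives from induced pluripotent stem cells and sells as iCell DopaNeurons, taken at day 4 on coated coverslips. Of 8 polyA libraries, 4 came from neurons on a GDNF-mimetic nanostructure, built to act like glial cell line-derived neurotrophic factor (GDNF libraries), and 4 from the comparator (CT libraries). What CT stands for is not written out; the only comparator the series names is a scrambled nanostructure, and CT is read as that. All libraries carry the same treatment label of 10.73 mM and the same cell product, so no dose and no second cell line was compared. The series design speaks of 3 biological replicates, while each group here has 4 numbered libraries. Nothing says that they came from separate cultures, so every p-value rests on library-to-library spread that may be technical.

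Syndecans cross the membrane and end in a short cytoplasmic tail that binds PDZ proteins, whereas glypicans are tethered to the outer leaflet by a lipid anchor. Both carry heparan sulfate chains, whose sulfated stretches bind growth factors, guidance cues and matrix proteins and present them to their receptors. SDC3, the neuronal syndecan, is known to bind GDNF through these chains, and glypicans are known as partners of synaptic and morphogen receptors.

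Total counts were 29532090 to 34559240 in GDNF libraries and 28698283 to 31692788 in CT libraries, so that 3 counts correspond to 0.0868 to 0.105 CPM. CT replicate 2 stood apart, with a median correlation of log2 CPM with the other libraries of 0.962, against 0.987 to 0.989 for the others. Neuronal markers (MAP2, STMN2, SNAP25 and others) summed to 6101 to 6906 CPM in GDNF and 4947 to 6971 CPM in CT, and 8 dopaminergic markers to 1047 to 1242 CPM in GDNF and 1014 to 1342 CPM in CT, with the dopamine transporter SLC6A3 below 1 CPM. Among markers of other cells, GFAP, ALDH1L1, SLC1A3 and S100B of astrocytes, OLIG1, OLIG2, PDGFRA and SOX10 of the oligodendrocyte lineage and LUM, DCN and PDGFRB of fibroblasts averaged under 1 CPM. The highest markers of these lists were SLC1A2, MBP and COL1A1. SLC1A2 alone stood at 250 to 317 CPM in GDNF and 150 to 331 CPM in CT. MBP alone stood at 44.7 to 52.8 CPM in GDNF and 45.3 to 50.2 CPM in CT. SLC1A2 and MBP thus made up most of the sums of their lists. The 7 astrocyte markers summed to 254 to 321 CPM in GDNF and 155 to 335 CPM in CT, the 6 oligodendrocyte-lineage markers to 47.8 to 55.01 CPM in GDNF and 49.2 to 53.7 CPM in CT, and the 6 fibroblast markers to 59.4 to 76.2 CPM in GDNF and 49.3 to 75.8 CPM in CT. The 7 neural progenitor markers, led by VIM and NES, had a larger sum than these lists, 451 to 609 CPM in GDNF and 469 to 575 CPM in CT, with PAX6 and HES5 averaging under 1 CPM. None of the markers was at 0 in every library, and the summed levels of all 8 marker lists overlapped between the groups. In bulk RNA, fewer cells of a type and less RNA per cell cannot be told apart.

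SDC3 and GPC2 held most of the syndecan and glypican mRNA of these neurons in both groups. Levels of different genes are compared as RPKM, here the TMM-scaled CPM divided by the exonic length in kilobases. By mean RPKM over the 8 libraries the order was SDC3 (172), GPC2 (95.98), GPC1 (25.3), SDC1 (15.04), SDC2 (6.85), GPC6 (4.43), GPC3 (1.28), GPC4 (0.629), GPC5 (0.353) and SDC4 (0.0606). Each gene lay above the next in 8 of 8 libraries. The ranges over libraries overlapped for a single pair of neighbours, SDC2 (lowest library 4.67 RPKM) and GPC6 (highest library 4.78 RPKM). SDC3 lay above 99.5% of the 19999 genes in the fit, GPC2 above 98.8%, GPC1 above 91.2% and SDC1 above 84.3%, while GPC4 lay above 22.3% and GPC5 above 13.96%.

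**Figure D1:**
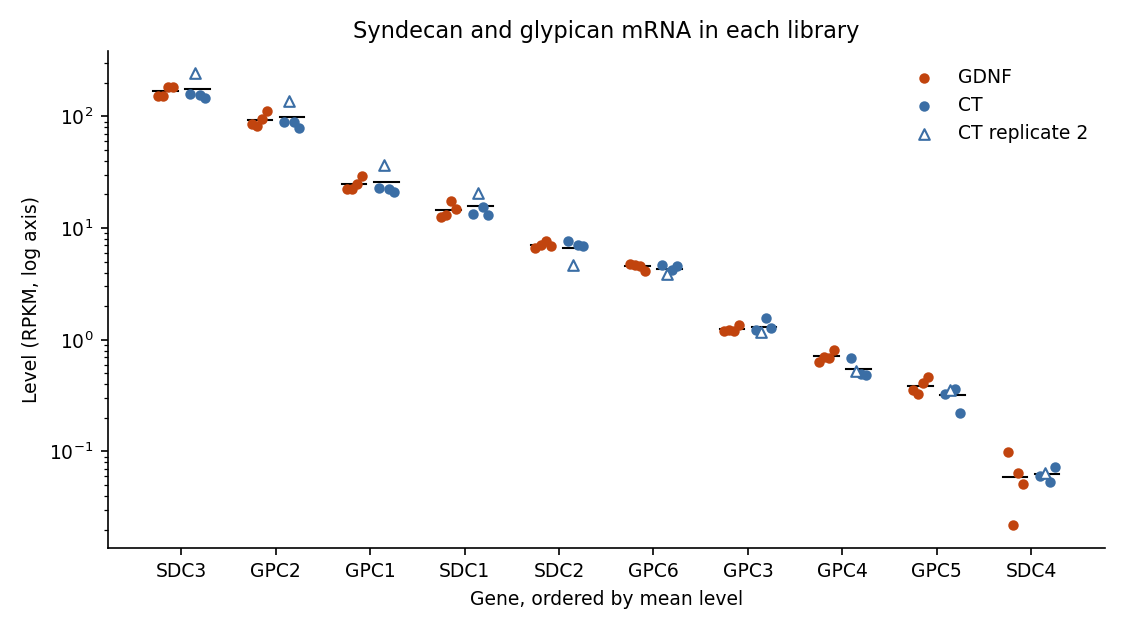
Level of each syndecan and glypican gene in RPKM (log axis) in 4 GDNF libraries (left of each pair) and 4 CT libraries (right), with a black bar at the mean; the open triangle is CT replicate 2. The genes span from 172 RPKM for SDC3 to 0.0606 RPKM for SDC4, and the groups overlap for every gene.

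Within each family 1 gene held most of the signal. SDC3 made up 88.6% ± 0.562 of the summed syndecan RPKM in GDNF and 88.5% ± 1.43 in CT (SD, n = 4 each). GPC2, a glypican known mainly from the developing nervous system, made up 74.6% ± 0.858 of the summed glypican RPKM in GDNF and 75.2% ± 0.936 in CT. GPC1 added 19.8% ± 0.327 in GDNF and 19.6% ± 0.658 in CT, so GPC1 and GPC2 together held 94.4% in GDNF and 94.8% in CT. The summed syndecans stood at 1.51 ± 0.105 times the summed glypicans in GDNF and 1.52 ± 0.0366 times in CT. These SDs cover the spread between libraries and not the choice of length. The longest transcript has 6392 bases for SDC3, against an exonic length of 7067. For GPC2 it has 2532 against 3828 bases, and for GPC1 3713 against 6516. With the longest transcript as length the excess of syndecans would therefore be smaller. The 10 genes together took 0.183% of all counts in GDNF and 0.190% in CT.

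Windows rich in CpG lay upstream of both the highest and the lowest member. RefSeq promoter windows (GRCh38.p14) were found for 8 members, SDC1 with both of its listed starts, and the 250 bases before the start were read. SDC3, the highest gene, and SDC4, the lowest, are shown because both have GC-rich windows, and GPC6 because its window was the poorest in CpG of those found. Capitals mark the core of the GC box (GGGCGG) or the core of a TATA box (read as TATAAA) on either strand, and neighbouring matches may overlap.
SDC3, chr1:30908759-30909008, minus strand: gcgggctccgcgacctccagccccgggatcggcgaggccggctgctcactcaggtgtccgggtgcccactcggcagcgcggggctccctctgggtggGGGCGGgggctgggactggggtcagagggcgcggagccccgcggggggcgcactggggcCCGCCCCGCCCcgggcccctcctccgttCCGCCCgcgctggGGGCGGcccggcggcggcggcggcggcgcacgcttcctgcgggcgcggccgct
SDC4, chr20:45348425-45348674, minus strand: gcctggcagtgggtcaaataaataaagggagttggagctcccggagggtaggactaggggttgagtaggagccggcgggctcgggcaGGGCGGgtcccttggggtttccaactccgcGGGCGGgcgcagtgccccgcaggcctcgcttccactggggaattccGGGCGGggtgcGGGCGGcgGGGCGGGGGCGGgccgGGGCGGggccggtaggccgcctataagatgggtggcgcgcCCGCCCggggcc
GPC6, chr13:93226557-93226806, plus strand: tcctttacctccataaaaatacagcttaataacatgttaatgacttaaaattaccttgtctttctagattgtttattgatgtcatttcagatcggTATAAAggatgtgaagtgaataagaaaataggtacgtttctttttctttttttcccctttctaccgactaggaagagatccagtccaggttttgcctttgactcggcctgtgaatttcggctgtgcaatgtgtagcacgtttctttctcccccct
The SDC3 window held 37 CpG dinucleotides and 5 GGGCGG matches, the SDC4 window 26 and 8, and the GPC6 window 6 and 0, with 1 TATAAA match in GPC6 and 0 in both syndecans. Of the members with a window, GPC5 also had 1 TATAAA match and the others 0. Of 35116 RefSeq windows of the same length, 96% had fewer CpG than that of SDC3, 80.4% fewer than that of SDC4 and 38.1% fewer than that of GPC6. The median was 11 CpG, 42.6% held GGGCGG and 10.7% held TATAAA. GPC1 (36 CpG, 4 GGGCGG) and GPC4 (32 CpG, 2 GGGCGG) were also CpG-rich, although GPC1 stood at 25.3 RPKM and GPC4 at 0.629 RPKM. GPC2, second in level, had 19 CpG and 3 GGGCGG matches, and GPC5, ninth in level, 25 CpG and 2 GGGCGG matches. These matches describe letters and are not binding sites.

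No member passed the test between GDNF and CT. In the edgeR quasi-likelihood fit, 9 of the 10 genes had enough counts to be tested, 4 with a positive and 5 with a negative log2 fold change, and 0 passed an adjusted p of 0.05, against a background of 0% of 19999 genes tested. At an unadjusted p under 0.05 edgeR had 0 members and 176 genes in all (0.88%), and DESeq2, which also called 0 genes, had 0 members and 151 genes. The groups overlapped for all 10 members, SDC4 among them although it was not tested. Over all genes tested 0.93% had groups that did not overlap, so overlap was the usual case and does not set the members apart. Over all genes tested 9521 had a positive and 10478 a negative log2 fold change, the background for such counts in the members and in the lists below. The median log2 fold change was -0.054 over the 9 members and -0.0098 over all genes tested. The sign of the members' median turned with GC and length offsets (0.029, 6 members positive and 3 negative), without CT replicate 2 (0.13, 7 positive and 2 negative) and without CT replicate 3 (0.045, 5 positive and 4 negative). For all 9 members the 95% confidence interval lay within 2-fold either way, and for 7 of them within 1.5-fold. Of the 19999 genes tested, 16775 had an interval within 2-fold and 10509 within 1.5-fold, so such intervals were the usual case.

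SDC3 (ENSG00000162512, chromosome 1, 30869467 to 30908761 in GRCh38, the build of all gene positions given) had 32095 to 51673 reads per library. It stood at 1069, 1068, 1302 and 1294 CPM in GDNF replicates 1 to 4, against 1114, 1717, 1108 and 1039 CPM in CT replicates 1 to 4. The highest library was CT replicate 2, and all GDNF values lay within the range of the CT values. Its log2 fold change was -0.073 (95% confidence interval -0.44 to 0.30, unadjusted p = 0.673 and adjusted p = 0.9999 in edgeR). Without CT replicate 2 it was 0.13 (-0.07 to 0.33), so the sign of the estimate rests on that library.

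SDC1 (ENSG00000115884, chromosome 2, 20200797 to 20225433), a syndecan best known from epithelial and plasma cells, stood at 45.4, 46.9, 62.3 and 53.6 CPM in GDNF and at 48.2, 73.5, 56.04 and 46.8 CPM in CT. As for SDC3, CT replicate 2 was the highest of the 8 libraries. Its log2 fold change was -0.11 (-0.49 to 0.27), and 0.052 (-0.20 to 0.31) without CT replicate 2.

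SDC2 (ENSG00000169439, chromosome 8, 96493351 to 96611780), known for its part in dendritic spine formation in rodent neurons, showed the opposite in CT replicate 2. It stood at 30.3, 32.3, 34.4 and 31.5 CPM in GDNF, against 35.03, 21.2, 32.2 and 31.5 CPM in CT. The 21.2 CPM of CT replicate 2 was its lowest value, and the other 7 libraries lay between 30.3 and 35.03 CPM. Its log2 fold change was 0.10 (-0.25 to 0.45), and -0.029 (-0.23 to 0.17) without CT replicate 2.

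SDC4 (ENSG00000124145, chromosome 20, 45325288 to 45348424), a broadly expressed syndecan of focal adhesions, had 2 to 9 reads per library and did not pass the count filter of the main fit. It stood at 0.257, 0.0571, 0.168 and 0.135 CPM in GDNF, against 0.158, 0.166, 0.138 and 0.189 CPM in CT. All CT values lay within the range of the GDNF values. In the fit with no filter its log2 fold change was -0.065 (-1.46 to 1.32), the widest interval of the 10 members, with an unadjusted p of 0.926 in edgeR.

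GPC2 (ENSG00000213420, chromosome 7, 100169606 to 100177372) stood at 326, 315, 366 and 425 CPM in GDNF, against 338, 528, 340 and 302 CPM in CT. GPC1 (ENSG00000063660, chromosome 2, 240435671 to 240468078), a glypican of the adult nervous system and many other tissues, stood at 147.02, 147.3, 162 and 191 CPM in GDNF, against 149, 241, 145 and 137 CPM in CT. In both genes CT replicate 2 was the highest library and GDNF replicate 4 the second highest. The log2 fold change was -0.075 (-0.47 to 0.32) for GPC2 and -0.054 (-0.47 to 0.36) for GPC1. Without CT replicate 2 the estimates were 0.14 (-0.091 to 0.37) and 0.18 (-0.043 to 0.40).

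GPC6 (ENSG00000183098, chromosome 13, 93226842 to 94407401), known as an astrocyte-secreted synaptogenic factor in rodents, was the third glypican by level. It stood at 30.9, 30.4, 29.6 and 26.5 CPM in GDNF, against 30.4, 24.95, 27.001 and 29.6 CPM in CT. It had the narrowest interval of the 9 members, a log2 fold change of 0.07 (-0.20 to 0.34). An antisense gene covers 7.36% of its exonic bases, and the strand setting of the counting is not given in the sources used here, so part of its count may belong to that gene. No other member shares exonic bases with an annotated gene.

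GPC4 (ENSG00000076716, chromosome X, 133300103 to 133415490), like GPC6 a synaptogenic glypican of rodent astrocytes, had the smallest p of the members. It stood at 3.16, 3.45, 3.39 and 4.05 CPM in GDNF, against 3.41, 2.62, 2.45 and 2.39 CPM in CT. All 4 GDNF libraries lay above CT replicates 2, 3 and 4, and CT replicate 1 lay within the GDNF range. The log2 fold change was 0.37 (-0.022 to 0.76), with an unadjusted p of 0.0621 and an adjusted p of 0.9999 in edgeR. Without CT replicate 1 it was 0.50 (0.092 to 0.90), with an unadjusted p of 0.021 and an adjusted p of 0.966. Over the alternatives the estimate ranged from 0.31 to 0.50 and the adjusted p was at least 0.922. These values rest on 71 to 121 reads per library.

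GPC3 and GPC5 were low, with 95 to 124 and 25 to 49 reads per library. GPC3 (ENSG00000147257, chromosome X, 133535745 to 133985895), a growth-restricting glypican mutated in an overgrowth syndrome, stood at 3.28, 3.34, 3.26 and 3.71 CPM in GDNF, against 3.29, 3.16, 4.28 and 3.43 CPM in CT. GPC5 (ENSG00000179399, chromosome 13, 91398607 to 92873682) stood at 1.254, 1.17, 1.44 and 1.65 CPM in GDNF, against 1.17, 1.26, 1.28 and 0.787 CPM in CT. The lowest GPC5 value was CT replicate 4, and without it the log2 fold change was 0.16, against 0.29 (-0.22 to 0.81) with all libraries. For GPC3 it was -0.059 (-0.41 to 0.29).

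**Figure D2:**
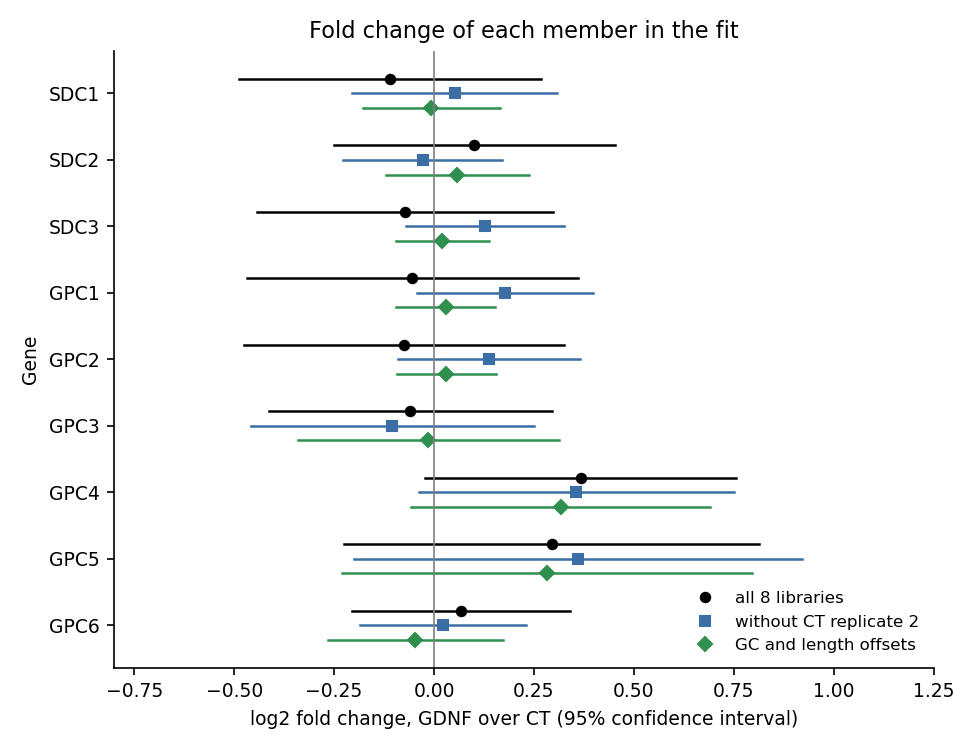
Log2 fold change of GDNF over CT with its 95% confidence interval for the 9 tested members, with all 8 libraries (black circles), without CT replicate 2 (blue squares) and with offsets for GC content and length (green diamonds). Every interval shown includes 0; for SDC3 the offsets give 0.0203 (-0.096 to 0.14), against -0.44 to 0.30 with no offsets.

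In CT replicate 2 the GC-rich members were high and most GC-poor members low. GPC1 (GC content 66.7%), GPC2 (61.2%), SDC1 (60.1%) and SDC3 (58.7%) lay 0.65, 0.62, 0.53 and 0.59 above the mean of the other 7 libraries in log2 CPM. SDC2 (43.9%), GPC4 (44.8%) and GPC6 (41.6%) lay below it, by log2 values of -0.61, -0.25 and -0.22. GPC5 (47.2%) was close to that mean, at 0.041, and GPC3 (51.4%) at -0.14. Among genes of at least 5 CPM the median deviation was -0.54 for a GC content of 40 to 45% (2647 genes) and 0.60 for 60 to 65% (1213 genes), and the values of GPC1, GPC2, SDC3, SDC2 and GPC5 lay within the quartiles of their bin of 5 points of GC content. SDC1 lay just below the quartiles of its bin and GPC3 further below, while GPC6 lay above, as did GPC4, which is at the GC-rich end of its bin. Across genes the Spearman correlation of a library's deviation with GC content was 0.806 in CT replicate 2 and 0.496 in GDNF replicate 4, and -0.64 to -0.022 in the other 6 libraries. With offsets for GC content and length, the log2 fold changes of SDC3, GPC1 and GPC2 were 0.0203 (-0.096 to 0.14), 0.0292 (-0.095 to 0.15) and 0.0309 (-0.092 to 0.15), with 0 genes called.

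**Figure D3:**
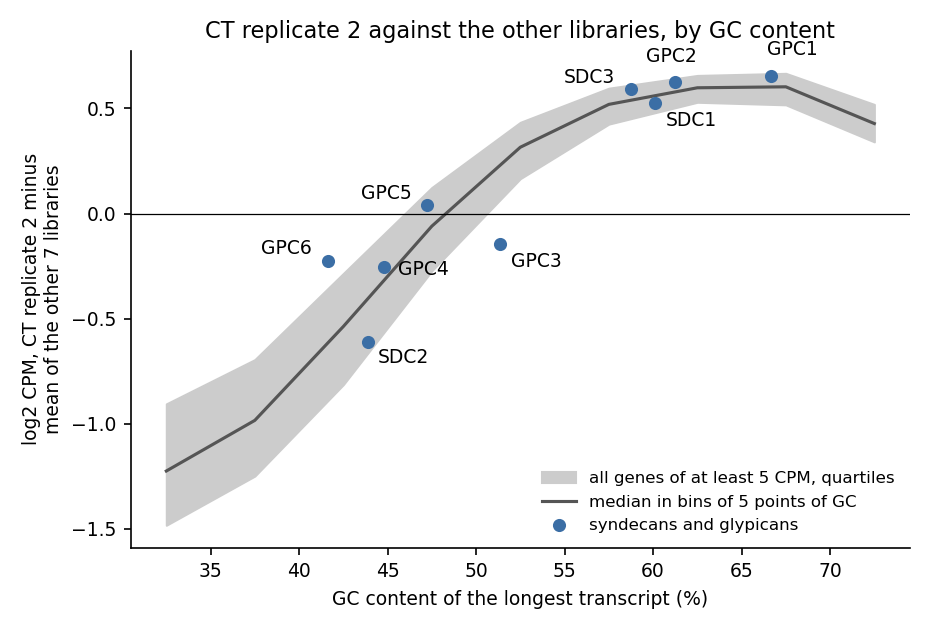
Difference in log2 CPM between CT replicate 2 and the mean of the other 7 libraries (y axis) against GC content of the longest transcript in percent (x axis). The line and band are the median and quartiles of all genes of at least 5 CPM in bins of 5 points; the blue points are the 9 tested members, of which SDC3, SDC1, GPC1 and GPC2 lie at 0.53 to 0.65 and SDC2 at -0.61.

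The enzymes that assemble heparan sulfate on these core proteins were all measured above the count filter, and none passed the test. The chain starts with a linker of 4 sugars made by XYLT1 or XYLT2, B4GALT7, B3GALT6 and B3GAT3, with FAM20B as the kinase of the linker, and is then extended by EXTL3, EXT1 and EXT2. Of 10 assembly genes 3 were above and 7 below 0 in log2 fold change, with a median of -0.048. EXTL3, the highest of the list by CPM, stood at 201 ± 16.4 CPM in GDNF and 209 ± 41.2 CPM in CT. EXT1, which forms the chain polymerase with EXT2 and is the gene with the smallest p, stood at 64.9 ± 4.13 CPM in GDNF and 71.7 ± 4.64 CPM in CT (log2 fold change -0.14, -0.40 to 0.11). With GC and length offsets it was -0.24 (-0.53 to 0.042), and without GDNF replicate 4 it was -0.094.

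The families of enzymes that modify the chain differed in how evenly their isoforms were expressed. The isoforms named here were chosen after their values were seen, and their levels are means over 8 libraries. The N-deacetylase and N-sulfotransferase NDST1 stood at 25.3 RPKM, against 0.635 for NDST4, 0.190 for NDST3 and 0.106 for NDST2, but NDST2 is uncertain, since 82.9% of its exonic bases also belong to an overlapping gene of the same orientation. All 3 6-O-sulfotransferases were present, with HS6ST3 at 21.02, HS6ST1 at 13.5 and HS6ST2 at 11.5 RPKM. This order did not hold in every library. HS6ST2 lay above HS6ST1 in GDNF replicates 1 and 2 and CT replicates 1 and 4. In CT replicate 2 HS6ST1 (19.3 RPKM) lay above HS6ST3 (16.8 RPKM). Of the 3-O-sulfotransferases HS3ST4 was highest at 17.4 RPKM, followed by HS3ST1 at 4.16 and HS3ST5 at 3.17 RPKM. SULF2, an extracellular enzyme that removes 6-O-sulfates, stood at 43.8 RPKM and SULF1 at 5.96 RPKM, while the heparanases HPSE and HPSE2 were at 0.0754 and 0.0627 RPKM. Reads per library were few for HPSE (7 to 14), HPSE2 (2 to 16) and NDST2 (9 to 25).

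Of the 20 modifying enzymes 18 were tested, 7 with a positive and 11 with a negative log2 fold change, a median of -0.058 and none past the threshold. SULF2 stood at 284 ± 14.3 CPM in GDNF and 300 ± 45.2 CPM in CT. HS3ST2, a neuronal 3-O-sulfotransferase and the gene with the smallest p of the list, stood at 3.48, 4.34, 4.36 and 4.49 CPM in GDNF, against 4.93, 4.88, 5.49 and 4.94 CPM in CT. Every GDNF library lay below every CT library for HS3ST2, at a log2 fold change of -0.28 (-0.61 to 0.044, unadjusted p = 0.0834, adjusted p = 0.9999 in edgeR). Of the 82 tested genes of the 8 lists on heparan sulfate, its partners and GDNF receptors, 2 had groups that did not overlap, HS3ST2 and DCN, where the background is 0.93% of genes.

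**Figure D4:**
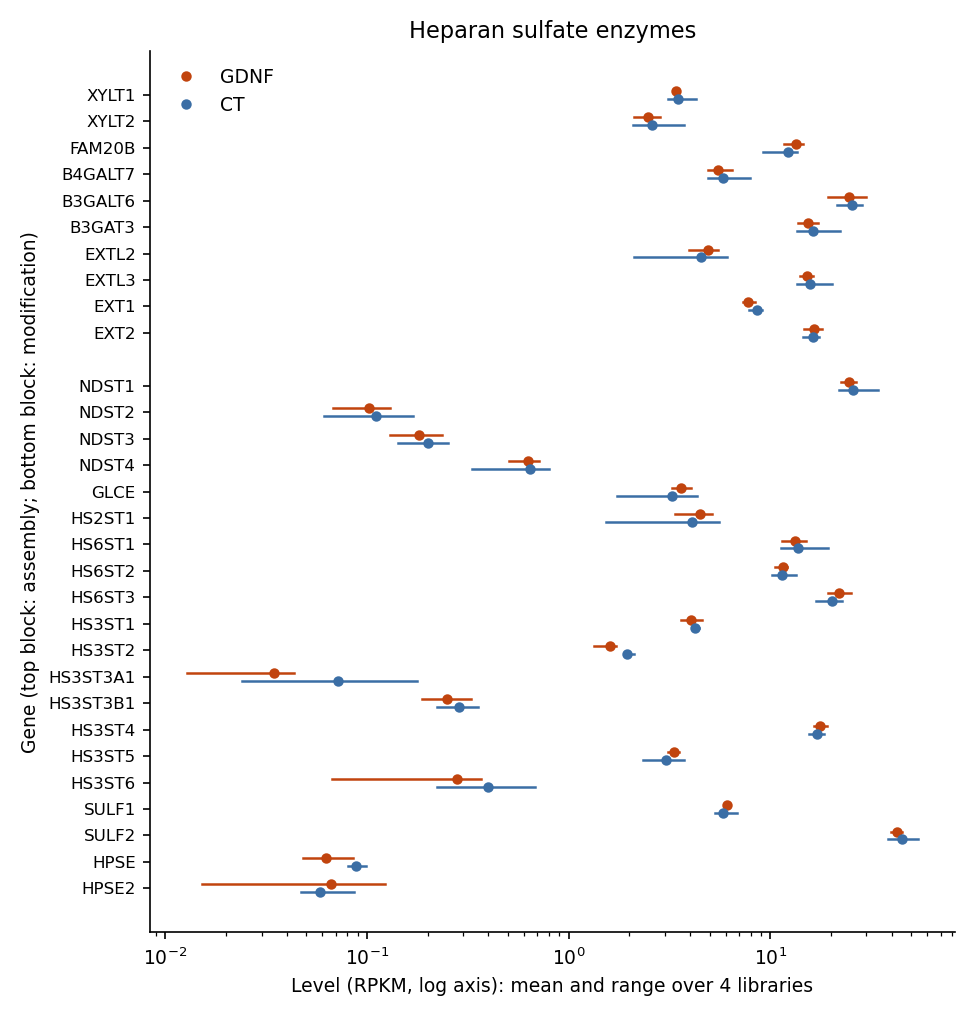
Level in RPKM (log axis) of the heparan sulfate assembly enzymes (top block) and modifying enzymes (bottom block), with the mean (point) and range (line) of 4 GDNF libraries above those of 4 CT libraries. NDST1, HS6ST3, HS3ST4 and SULF2 lead their families by mean level, and HS3ST2 is the tested gene of these blocks whose ranges do not meet.

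Other proteoglycans of the neuronal surface and matrix did not pass the test either. Of 8 tested carriers of heparan sulfate 3 were above and 5 below 0, and AGRN, which encodes agrin, stood at 248 ± 34.2 CPM in GDNF and 260 ± 74.7 CPM in CT. CD44, the gene with the smallest p of that list, was near the detection limit at 0.441 ± 0.157 CPM in GDNF and 0.323 ± 0.179 CPM in CT. Of 8 tested chondroitin sulfate proteoglycans 4 were above and 4 below 0. NCAN, which encodes the brain matrix protein neurocan, stood at 317 ± 16.995 CPM in GDNF and 323 ± 54.8 CPM in CT. DCN, which encodes decorin and is a fibroblast marker, stood at 0.678 ± 0.154 CPM in GDNF and 0.446 ± 0.151 CPM in CT, from 7 to 27 reads per library.

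Genes that cut, bind or signal from syndecans and glypicans gave no call. Of 9 genes listed as enzymes that may release them, 6 were above and 3 below 0. MMP16, a membrane-anchored metalloprotease, stood at 62.8 ± 10.4 CPM in GDNF and 58.2 ± 24.1 CPM in CT. MMP9 stood at 0.672 ± 0.213 CPM in GDNF and 0.915 ± 0.169 CPM in CT, from 17 to 35 reads per library. An antisense gene covers 18.4% of the exonic bases of MMP9, so part of its count may belong to that gene. Of 9 cytoplasmic partners 3 were above and 6 below 0, with the kinase FYN at 383 ± 18.2 CPM in GDNF and 392 ± 21.998 CPM in CT. SDCBP2, a paralog of the syndecan-binding PDZ protein syntenin, stood at 2.12 ± 0.304 CPM in GDNF and 2.65 ± 0.481 CPM in CT, with 9.2% of its exonic bases shared on the same strand.

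Of 14 ligands and receptors at the neuronal surface 6 were above and 8 below 0, with a median of -0.034. PTPRS, a receptor phosphatase that binds heparan and chondroitin sulfate, stood at 726 ± 56.1 CPM in GDNF and 810 ± 229 CPM in CT, where CT replicate 2 had 1153 CPM. PTN, which encodes the SDC3 ligand pleiotrophin, gave the lowest p here and stood at 12.8, 10.3, 11.7 and 12.4 CPM in GDNF, against 12.3, 17.2, 13.9 and 13.6 CPM in CT. CT replicate 1 lay within the range of the GDNF libraries, and the log2 fold change was -0.27 (-0.60 to 0.052). Without CT replicate 2 it was -0.17 and without CT replicate 1 -0.34. Over the alternatives that kept all libraries it ranged from -0.38 to -0.26, and its sign turned in 0 of the alternatives.

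Set beside the GDNF receptor genes, SDC3 was among the most abundant. At 172 RPKM it lay between the alternative GDNF receptor NCAM1 at 222 RPKM and the co-receptor GFRA1 at 24.2 RPKM, with the receptor kinase RET at 9.48 RPKM. None of the 6 tested receptor and ligand genes passed, 3 being above and 3 below 0. NCAM1 stood at 2799 ± 98.2 CPM in GDNF and 2856 ± 232 CPM in CT, and the GDNF gene itself, with the lowest p of the 6, at 0.503 ± 0.146 CPM in GDNF libraries and 0.361 ± 0.0705 CPM in CT libraries. The exonic bases of NCAM1 and GDNF lie antisense to other genes over 5.52% and 12.3%.

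The genes most like SDC3 across the 8 libraries were PTPRN, LMX1B and ABCA3. Likeness was the root mean square difference in log2 CPM after centring each gene, over 11814 other genes of at least 5 CPM. It was 0.0192 for PTPRN, 0.0192 for LMX1B and 0.0203 for ABCA3, against a median of 0.254 over all these genes. The GC contents of the 3 genes were 56.7%, 59.3% and 60.4%, close to the 58.7% of SDC3. Without CT replicate 2 the nearest genes were AMER3, PELP1 and LMX1B. Among the members of at least 5 CPM, GPC2 was nearest to SDC3 at 0.0629, with GPC1 at 0.071 and SDC1 at 0.0907. They ranked 476, 709 and 1415 of the 11814 genes, so many other genes were nearer to SDC3. GPC6 at 0.318 and SDC2 at 0.414 lay beyond the median gene. GPC3, GPC4, GPC5 and SDC4 were below 5 CPM and were not compared. Without CT replicate 2, where the median was 0.163, SDC2 at 0.119 was nearer to SDC3 than the median gene, and GPC6 at 0.1799 was not.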

How the data were processed

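PolyA RNA was measured in 8 libraries, 4 GDNF and 4 CT. The authors deposited raw read counts per Ensembl gene, not normalized. The submitters' processing notes list cutadapt, FastQC, HTSeq, STAR, DESeq2 and GRCh38. Neither versions and annotation release nor strand setting and treatment of multi-mapped reads are stated.

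Low genes were removed with filterByExpr (10 reads as minimum count and 15 in total), which kept 19999. The main test was the quasi-likelihood test in edgeR 4.0.16, run in R 4.3.3, with TMM scaling, robust estimation and a model of group alone. P-values were adjusted by Benjamini and Hochberg over all 19999 genes, with a threshold of 0.05. Intervals are 95%. DESeq2 1.42.0 was an alternative. The steps were tested on simulated data. Exonic length, GC content of the longest transcript and exon overlap came from GENCODE 29, in which 98.7% of the 58275 matched genes had the start and end of the deposited table. GC and length offsets were smooth curves per library (mgcv 1.9.3).

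From each of 8 lists the text names the gene with the highest CPM and the gene with the smallest p. Members and lists were chosen with earlier results of these data known. Counts of libraries of the same group differed by more than sampling noise.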

Additional observations from a re-analysis of the deposited data

Results flagged for a closer look

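A library far from the other 3 of its group was found in 8 of 52 sets of values, and about 1 in 20 sets (2.6 here) is expected by chance. CT replicate 2 was that library in 5 sets, all of genes with a GC content of 58.7% or more. SDC3 stood at 1717 CPM in it, and the other CT libraries at 1039 to 1114 CPM, GPC1 at 241 CPM against 137 to 149 CPM, and GPC2 at 528 CPM against 302 to 340 CPM. AGRN stood at 371 CPM in CT replicate 2 against 216 to 238 CPM, and PTPRS at 1153 CPM against 673 to 721 CPM. HS3ST2 stood at 3.48 CPM in GDNF replicate 1, below the 4.34 to 4.49 CPM of the other GDNF libraries, and at 5.49 CPM in CT replicate 3, above 4.88 to 4.94 CPM. DCN stood at 0.906 CPM in GDNF replicate 3, above 0.571 to 0.627 CPM in the other GDNF libraries.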

How the results depend on the processing

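No gene passed under any of the alternatives run (DESeq2 size factors, the DESeq2 test, 2 other filters, the replicate block, GC and length offsets with and without the block, each library left out): the counts of genes, members and list genes past the threshold were 0 throughout. In edgeR an unadjusted p under 0.05 held for 80 of 16191 genes with the filter of 1 CPM in 4 libraries. With no filter it held for 1024 of 40414 genes, and the other alternatives lay between these counts. Among the members it held for GPC4 alone, without CT replicate 1, where it held for 296 of 19999 genes. The order of the members by RPKM was the same with the longest transcript as length and without each library. The labels give no pairing of the libraries. Between GDNF and CT libraries of the same replicate number the deviations from the group mean correlated at 0.273, -0.32, 0.173 and -0.42. These deviations also carry each library's relation to GC content, so they cannot show whether libraries were paired. The replicate block called 0 genes. Of 135 alternative values for the 9 members 14 changed sign. The GC and length offsets turned SDC3 (0.0203, and 0.0189 with the block), GPC1 (0.0292 and 0.0298), GPC2 (0.0309 and 0.0306), GPC6 (-0.0469 and -0.0373), AGRN (0.003 and 0.0045) and NCAN (0.0488 and 0.0492). Leaving out each library gave -0.21 to 0.0518 for SDC1, -0.0286 to 0.18 for SDC2, -0.15 to 0.13 for SDC3, -0.14 to 0.18 for GPC1, -0.17 to 0.14 for GPC2, -0.10 to 0.0447 for GPC3, -0.12 to 0.0925 for EXTL3, -0.15 to 0.0249 for SULF2, -0.15 to 0.16 for AGRN, -0.0803 to 0.11 for NCAN, -0.13 to 0.28 for MMP16, -0.24 to 0.0657 for PTPRS and -0.064 to 0.0329 for NCAM1. The sign turned without CT replicate 2 in all of these but GPC3, which turned without CT replicate 3. NCAN also turned without GDNF replicate 2 and NCAM1 without GDNF replicate 4. The causes were not tested.
Depth limits SDC4, CD44, DCN, MMP9, the GDNF gene, HPSE, HPSE2 and NDST2, at few reads per library.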

Other observations

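Several members are neighbours on their chromosomes. GPC4 and GPC3 lie on chromosome X with 120 kb and no protein-coding gene between them, and GPC5 and GPC6 on chromosome 13 with 353 kb and no protein-coding gene between them. By level, GPC6 stood at 4.43 RPKM and GPC5 at 0.353 RPKM, while GPC3 and GPC4 stood at 1.28 and 0.629 RPKM. GPC5 and GPC6 span 1475 and 1181 kb, against 7.77 kb for GPC2. Among the 6 other genes in the table that are named after members, GPC6-AS1 had 0 to 4 reads and GPC6-AS2 0 to 3 reads per library, and GPC5-AS1, GPC5-AS2, GPC5-IT1 and the pseudogene SDC4P had 0 reads in each library.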
